A study of Rattus norvegicus with 12 samples.

Results

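Prefrontal cortex RNA of 8 rat offspring with developmental oxycodone exposure was compared with that of 4 saline offspring, to ask what exposure in either of the labelled windows left in common. The 12 animals were the whole series, with 1 library each, and 14170 of the 22431 genes in the deposited table had the mean of at least 0.5 FPKM (fragments scaled by transcript length and library size) that was asked for. Genotype was given as WT in every animal. The 4 controls were labelled Saline, the exposed animals comprised 4 labelled postnatal oxycodone (PNO) and 4 labelled in utero oxycodone (IUO), and collection was in early adolescence. The protocol text gave oxycodone by oral gavage at 15 mg/kg with postnatal day 21 as the latest day named, and it did not say which days belonged to which group or whether dams or pups were dosed. Strain, sex and age in days were not given. To every group 2 dams had contributed 2 animals each, the labels did not tie an animal to its dam, and p values over animals may for that reason be too small.

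Oxycodone is an agonist of the mu opioid receptor, which couples to inhibitory G proteins and lowers neuronal excitability and transmitter release. The prefrontal cortex is still maturing in adolescence: its excitatory pyramidal cells and inhibitory GABA interneurons refine their connections, and activity-regulated genes such as Bdnf take part in that refinement. Chaperones of the endoplasmic reticulum fold the receptors, channels and secreted peptides that these cells make.

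Total counts ran from 49227533 to 60672246 per animal. Cortical layer markers were present in every animal: 17 of 19 were tested, with a mean log2 CPM (counts scaled to library size) of 5.18 to 5.50 over the 12 animals. Markers of regions next to the prefrontal cortex differed between animals. The mean log2 CPM of 11 olfactory bulb genes was raised in PNO 1, PNO 3, PNO 4 and IUO 3, at 3.56 to 4.32, and was 1.32 to 1.88 in the other 8 animals, all saline animals among them. Eomes, a member of that list and a transcription factor gene of bulb mitral cells, was at 0.159 to 0.468 CPM in saline and at 6.56, 5.82, 7.78 and 11.2 CPM in those 4. The mean of 13 striatal genes was raised in PNO 2, IUO 1, IUO 2 and saline 2, at 4.68 to 6.40, against 3.60 to 3.75 in the other 8. Thus 1 of 8 exposed animals, IUO 4, and 3 of 4 saline animals had neither raised. The Y-linked gene Eif2s3y was at 47.5 to 61.5 CPM in saline 1, saline 3, PNO 2, PNO 3 and IUO 3 and at 0.441 to 1.21 CPM in the others, and with its level as a covariate edgeR called 0 genes. In bulk tissue, fewer cells of a type and less RNA per cell cannot be told apart.

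In the test of exposed against saline the edgeR quasi-likelihood test called 0 of 14170 genes at an adjusted p under 0.05 (0.0%). Before adjustment 987 genes had a p under 0.05, 621 of them higher in exposed (4.38%) and 366 lower (2.58%). On the log2(FPKM + 0.1) scale that split was 701 higher and 245 lower. Of all 14170 log2 fold changes in edgeR, 7671 were positive (54.1%) and 6499 negative. The list counts below are to be read beside these shares. DESeq2 called 19 genes (0.134%), 15 higher and 4 lower, and 1 was called on the log2(FPKM + 0.5) scale by limma. Weighting the samples in limma gave 0 calls, with 2194 genes at an unadjusted p under 0.05. Without reference to a model, 44 genes (0.311%) had all 8 exposed animals above all 4 saline animals, and 51 genes (0.36%) had all 8 below. In FPKM these counts were 57 and 38. IUO 4 bore on all of these numbers: without it edgeR called 7 genes, 2345 had an unadjusted p under 0.05, and 439 did not overlap between the groups. It was also the only exposed animal with neither bulb nor striatal markers raised. Without it every exposed animal had raised markers of 1 of these regions, against 1 of 4 saline animals. In the fit without IUO 4, exposure and these markers therefore cannot be told apart. The plot of counts with each animal left out shows that leaving out any of the other 11 gave 754 to 981 genes at an unadjusted p under 0.05.

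**Figure D1:**
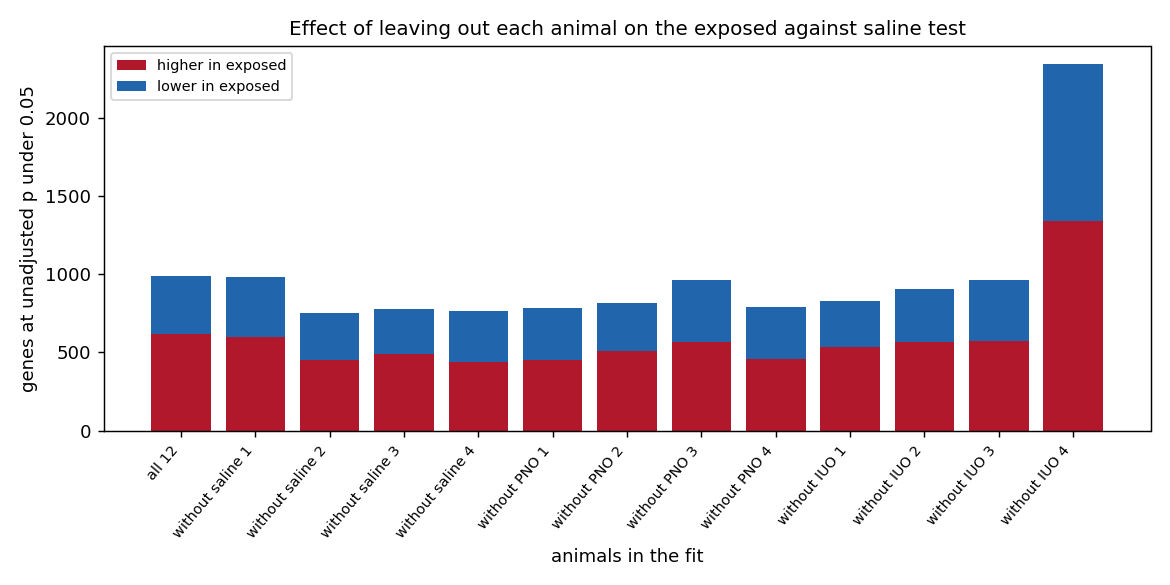
Number of genes at an unadjusted p under 0.05 in the edgeR test of exposed against saline (vertical axis), for all 12 animals and with each animal left out in turn (horizontal axis), split by direction. The bar without IUO 4 reaches 2345 genes, against 987 with all animals and 754 to 981 without any of the other 11.

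Several genes of neurons and cell signalling measured apart in exposed and saline animals in both windows, none of them called by edgeR with all 12 animals. Gad1, which encodes the main GABA-synthesising enzyme (glutamate decarboxylase 67), measured 164, 187, 176 and 201 CPM in the 4 saline animals, 273, 230.1, 259 and 307 CPM in PNO and 212, 259, 295 and 212 CPM in IUO. All 8 exposed animals lay above all 4 saline animals. The log2 fold change was 0.49 (SE 0.11, edgeR adjusted p = 0.574, DESeq2 adjusted p = 0.0332), and it was 0.55 in PNO and 0.42 in IUO, windows that share the saline animals. With striatal and bulb marker means as covariates it was 0.26, and without the 4 animals with raised bulb markers 0.31. No saline animal had raised bulb markers, and IUO 4 was the only exposed animal with neither list raised. Values with these covariates, here and below, therefore lean in part on IUO 4. They cannot fully separate exposure from these markers.

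Tiam1, an exchange factor for Rac that shapes dendritic spines, measured 43.2, 36.8, 40.6 and 33.8 CPM in saline, 52.2, 63.7, 56.9 and 60.9 CPM in PNO and 52.6, 60.1, 51.1 and 40.6 CPM in IUO. IUO 4 was the exposed animal inside the saline range. The log2 fold change was 0.50 (SE 0.11, edgeR adjusted p = 0.574, DESeq2 adjusted p = 0.0351), and without IUO 4 edgeR called the gene (adjusted p = 0.0494). With the marker means as covariates its log2 fold change was 0.27. Steap2, a metalloreductase of iron and copper uptake, measured 9.83, 9.70, 7.32 and 10.6 CPM in saline, 16.8, 14.3, 16.3 and 16.2 CPM in PNO and 11.4, 16.98, 17.9 and 10.6 CPM in IUO. The groups did not overlap, although IUO 4 and saline 4 round to the same value (log2 fold change 0.69, SE 0.16, DESeq2 adjusted p = 0.0332, and 0.31 with the covariates). Cbfa2t3, a transcriptional corepressor, measured 14.9 to 18.6 CPM in saline and 20.8 to 33.4 CPM in exposed animals, with a median of 22.9. The corresponding log2 fold change was 0.50 (SE 0.12). Mcf2l, an exchange factor for small GTPases, measured 137 to 154 CPM and 159.8 to 186 CPM, again with no overlap, and its log2 fold change was 0.26 in the pooled test and 0.26 and 0.26 in PNO and IUO.

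Genes that measured lower in all exposed animals included a peptide convertase and a receptor. Pcsk1, the proprotein convertase that cleaves prohormones and neuropeptide precursors, measured 22.4, 23.8, 24.8 and 22.6 CPM in saline, 16.8, 17.2, 18.7 and 19.9 CPM in PNO and 18.1, 15.2, 18.6 and 18.2 CPM in IUO. The highest exposed animal stayed below the lowest saline animal. The log2 fold change was -0.39 (SE 0.08, edgeR adjusted p = 0.574, DESeq2 adjusted p = 0.0182), with -0.36 in PNO and -0.41 in IUO. It was -0.40 with the covariates, -0.46 without the animals with raised bulb markers and -0.33 without those with raised striatal markers. Mas1, the receptor for angiotensin-(1-7), measured 21.4, 20.3, 23.4 and 26.4 CPM in saline, 11.3, 15.7, 18.1 and 11.8 CPM in PNO and 17.1, 13.1, 11.4 and 18.8 CPM in IUO. Here too no exposed animal reached the saline range (log2 fold change -0.64, SE 0.15, DESeq2 adjusted p = 0.0479, and -0.32 with the covariates).

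Cdkn1a, which encodes the cell cycle inhibitor p21, measured 15.5 to 18.8 CPM in saline and 8.25 to 14.4 CPM in exposed animals, with a median of 11.6. Its log2 fold change was -0.58 (SE 0.14), -0.54 in PNO and -0.62 in IUO. Schip1, a protein of the axon initial segment and nodes of Ranvier, differed by less but with little spread. It measured 148, 141, 136 and 145 CPM in saline, 123, 124, 124 and 114 CPM in PNO and 124, 126, 126 and 125 CPM in IUO, so that 7 exposed animals lay within 123 to 126 CPM (log2 fold change -0.21, SE 0.05, DESeq2 adjusted p = 0.0270). Ndn, the imprinted gene of necdin, which restrains neuronal death, measured 229 to 263 CPM in saline and 201 to 222 CPM in exposed animals (log2 fold change -0.23, SE 0.06, DESeq2 adjusted p = 0.0441). For Cdkn1a, Schip1 and Ndn the groups did not overlap.

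**Figure D2:**
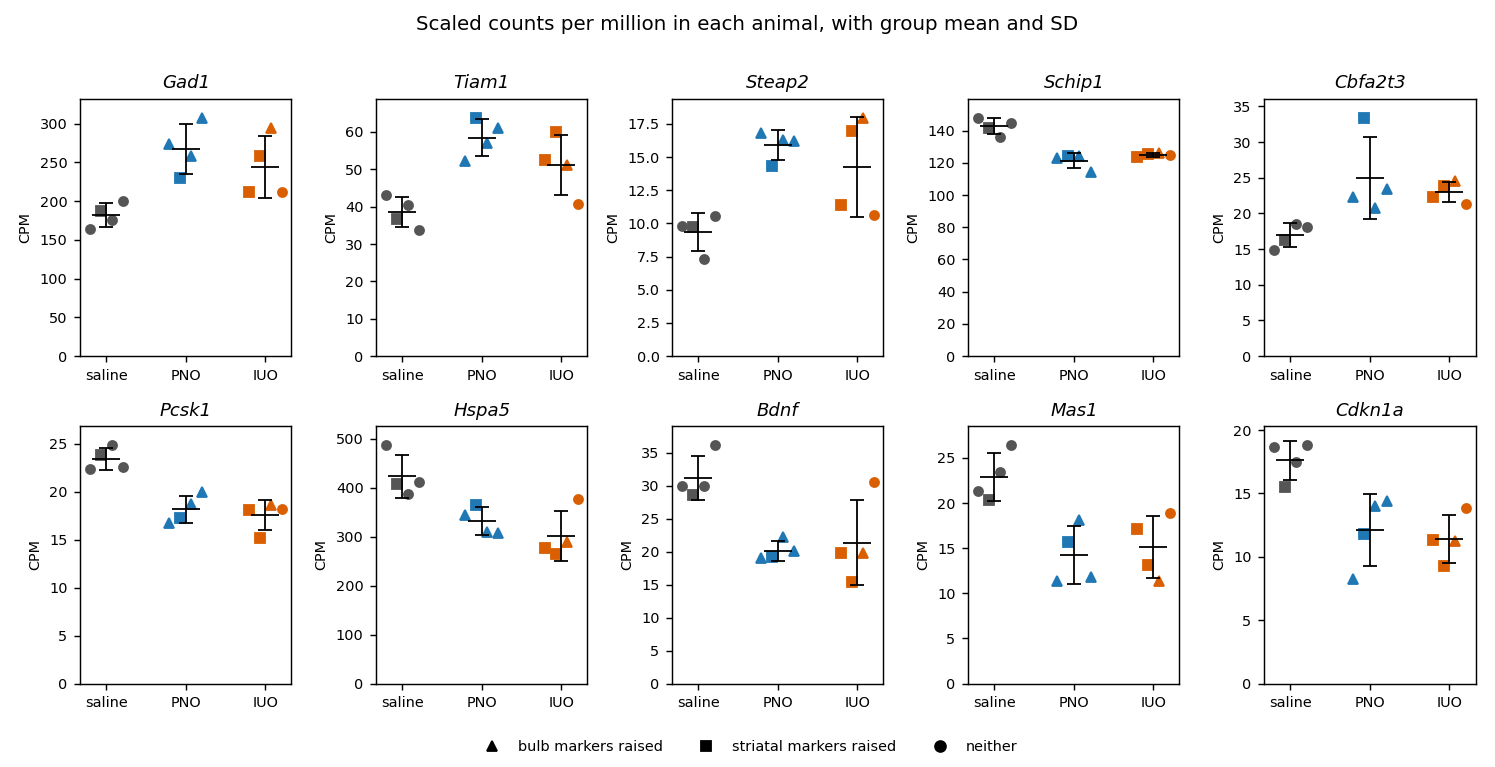
CPM (vertical axes, from 0) of 10 genes in each animal by group (horizontal axis). Points are animals, with triangles where bulb markers were raised, squares where striatal markers were raised and circles where neither was, and horizontal and vertical bars give the group mean and SD (n = 4). Pcsk1, Hspa5, Mas1, Cdkn1a and Schip1 show all 8 exposed animals below all 4 saline animals, while IUO 4 lies in the saline range for Tiam1 and Bdnf.

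Of genes with low levels, Cenpl, a centromere protein gene, measured 3.79, 4.10, 3.61 and 4.78 CPM in saline, 2.60, 2.84, 2.72 and 2.26 CPM in PNO and 3.33, 2.22, 2.57 and 3.35 CPM in IUO, with all exposed animals below all saline animals. Ftcd, an enzyme of histidine and folate metabolism, measured 0.296, 0.714, 0.920 and 0.565 CPM in saline, 1.97, 1.68, 1.26 and 1.58 CPM in PNO and 2.09, 1.95, 1.71 and 3.33 CPM in IUO (log2 fold change 1.64, SE 0.31, DESeq2 adjusted p = 0.00198).

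Other genes with small unadjusted p had groups that did not overlap or nearly so. Ifrd1, a transcriptional coregulator that rises with cell stress, measured 46.3 to 51.8 CPM in saline and 35.8 to 44.97 CPM in exposed animals, with a median of 39.3 (log2 fold change -0.32, SE 0.07). Vxn, the gene of vexin, a neurogenesis factor, measured 396 to 434 CPM and 302 to 372 CPM (log2 fold change -0.27, SE 0.07). Pdp1, the phosphatase that activates pyruvate dehydrogenase, measured 84.5 to 98.8 CPM and 63.96 to 87.3 CPM, with IUO 4 highest of the exposed. On the higher side, Polr3a, the largest subunit of RNA polymerase III, measured 20.2 to 27.1 CPM in saline and 29.2 to 36.8 CPM in exposed animals (log2 fold change 0.39, SE 0.10). Elac1, an enzyme of tRNA ends, measured 2.75, 2.82, 2.78 and 2.72 CPM in saline and 3.07 to 5.78 CPM in exposed animals, a log2 fold change of 0.67 (SE 0.16). Myo9b, a myosin that switches off small GTPases, measured 45.7 to 54.8 CPM and 56.3 to 82.5 CPM, and Fstl4, a secreted follistatin-like protein, 14.3 to 22.4 CPM and 23.9 to 32.3 CPM. Ksr1, a scaffold that brings RAF to MEK, measured 30.7 to 34.6 CPM and 34.3 to 51.2 CPM, overlapping by PNO 2. IUO 4 was the highest exposed animal for Fstl4 and Pdp1 and the lowest for Myo9b. Rerg, a Ras-like GTPase, and Zfp385d, a zinc finger gene, were called by DESeq2 (adjusted p = 0.0332 and 0.0414), but their log2 fold changes of 1.32 and 1.10 were 0.18 and 0.27 with the marker means as covariates.

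Genes of the endoplasmic reticulum chaperones and the unfolded protein response, the signalling system that tunes folding capacity to load, measured lower in most exposed animals. Of 24 tested members 20 had a negative log2 fold change, against 6499 of all 14170 genes. The median was -0.15 (all genes 0.02), and it was -0.16 in PNO and -0.13 in IUO. At an unadjusted p under 0.05, 7 members were lower and 0 higher, 0 passed the edgeR adjustment, and 3 had all exposed animals below all saline animals: Hspa5, Pdia6 and Xbp1. With the marker means as covariates the median was -0.07, with 8 members positive. Manf (1.04), Atf6 (0.39), Sel1l (0.04) and Herpud1 (0.03) were positive without them. The mean of the list was 5.759 to 5.910 log2 CPM in saline and 5.630 to 5.911 in exposed animals. IUO 4 was highest of all animals, PNO 2 lay within the saline range at 5.800, and the other exposed animals lay below it. Hspa5 (BiP), the main Hsp70 chaperone of the endoplasmic reticulum, measured 487, 407, 388 and 412 CPM in saline, 345, 365, 309 and 307 CPM in PNO and 278, 264, 290.0 and 377 CPM in IUO. Its highest exposed animal, IUO 4, lay below the lowest saline animal. The log2 fold change was -0.42 (SE 0.10, edgeR adjusted p = 0.574, DESeq2 adjusted p = 0.0582), -0.35 in PNO and -0.49 in IUO.

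The upstream sequences of these genes are shown because the transcription factors of the unfolded protein response act through a short element, the endoplasmic reticulum stress element. It reads CCAAT, any 9 bases, then CCACG, and it contains the CCAAT box that is common in promoters. RefSeq promoters of the rat build GRCr8 matched 21 of the 25 listed genes. In the 250 bases before the start, searched on both strands, 7 of the 21 (33.3%) held the element, against 22 of all 33469 promoters (0.0657%), and that share is a property of the list and not of the exposure. The full window of Hspa5 (chr3:38452766-38453015, plus strand) and, for the other 6, the element with 20 bases on either side where the window allows are given 5′ to 3′ along the gene, with the element in capitals.
Hspa5: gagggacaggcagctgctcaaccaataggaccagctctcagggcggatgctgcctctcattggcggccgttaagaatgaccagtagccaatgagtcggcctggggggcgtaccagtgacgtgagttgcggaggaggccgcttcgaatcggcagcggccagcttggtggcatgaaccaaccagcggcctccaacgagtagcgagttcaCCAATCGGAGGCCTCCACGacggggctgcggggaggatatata
Hsp90b1 (chr7:23012327-23012489, minus strand, holding 2 copies): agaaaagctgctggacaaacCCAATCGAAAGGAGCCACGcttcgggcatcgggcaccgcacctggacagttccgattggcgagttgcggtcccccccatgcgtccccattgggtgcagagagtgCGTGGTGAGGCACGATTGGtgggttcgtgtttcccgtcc
Creld2 (chr7:121789219-121789277, plus strand): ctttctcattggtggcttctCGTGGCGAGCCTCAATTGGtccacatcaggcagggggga
Xbp1 (chr14:84604538-84604596, plus strand): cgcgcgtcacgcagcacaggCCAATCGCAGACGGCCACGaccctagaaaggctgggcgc
Dnajc3 (chr15:102432514-102432572, plus strand): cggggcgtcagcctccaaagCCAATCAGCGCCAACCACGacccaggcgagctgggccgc
Calr (chr19:40213117-40213173, plus strand): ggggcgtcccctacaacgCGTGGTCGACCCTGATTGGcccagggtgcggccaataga
Canx (chr10:35158049-35158107, minus strand): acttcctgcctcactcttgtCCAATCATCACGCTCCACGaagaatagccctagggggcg

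The 7 genes with the element, named for it after their values had been seen, ranged in log2 fold change from -0.42 to -0.03. Xbp1, a transcription factor of the response itself, measured 109, 114, 106 and 123 CPM in saline, 91.4, 106, 105 and 104 CPM in PNO and 83.7, 98.7, 103 and 92.6 CPM in IUO. No exposed animal reached the saline range (log2 fold change -0.21, SE 0.07, edgeR adjusted p = 0.686). Hsp90b1 (Grp94), the Hsp90 chaperone of the compartment, had a log2 fold change of -0.20, and its 295 to 386 CPM in exposed overlapped 333 to 437 CPM in saline. Creld2, a secreted stress-response protein, measured 14.2 ± 1.47 CPM in saline and 11.5 ± 1.85 CPM in exposed animals (mean ± SD, n = 4 and 8), with IUO 3 and IUO 4 within the saline range. The lectin chaperone gene Calr measured 653 ± 41.1 and 593 ± 39.3 CPM, the cochaperone gene Dnajc3 10.3 ± 1.24 and 8.71 ± 1.58 CPM, and the membrane lectin chaperone gene Canx 277 ± 25.9 and 272 ± 30.03 CPM. These 3 had an unadjusted p above 0.05, and the log2 fold change of Canx, -0.03, changed sign in 4 of the alternative analyses.

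Disulfide isomerases, which form and shuffle disulfide bonds, were among the lower members. Pdia6 measured 162, 171, 154 and 156 CPM in saline, 143, 143, 141 and 137 CPM in PNO and 130.3, 122, 139.9 and 152 CPM in IUO. IUO 4 came closest to the saline animals without reaching them (log2 fold change -0.22, SE 0.07, edgeR adjusted p = 0.614). Pdia3 measured 274 ± 13.8 CPM in saline and 232 ± 22.2 CPM in exposed animals, with a log2 fold change of -0.24 (SE 0.08) and IUO 4 at 276 CPM inside the saline range of 261 to 291. Of the 16 tested heat shock proteins of the cytosol 12 were negative, with a median of -0.05 (-0.10 without the animals with raised bulb markers), and with 1 member lower and 0 higher at an unadjusted p under 0.05.

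**Figure D3:**
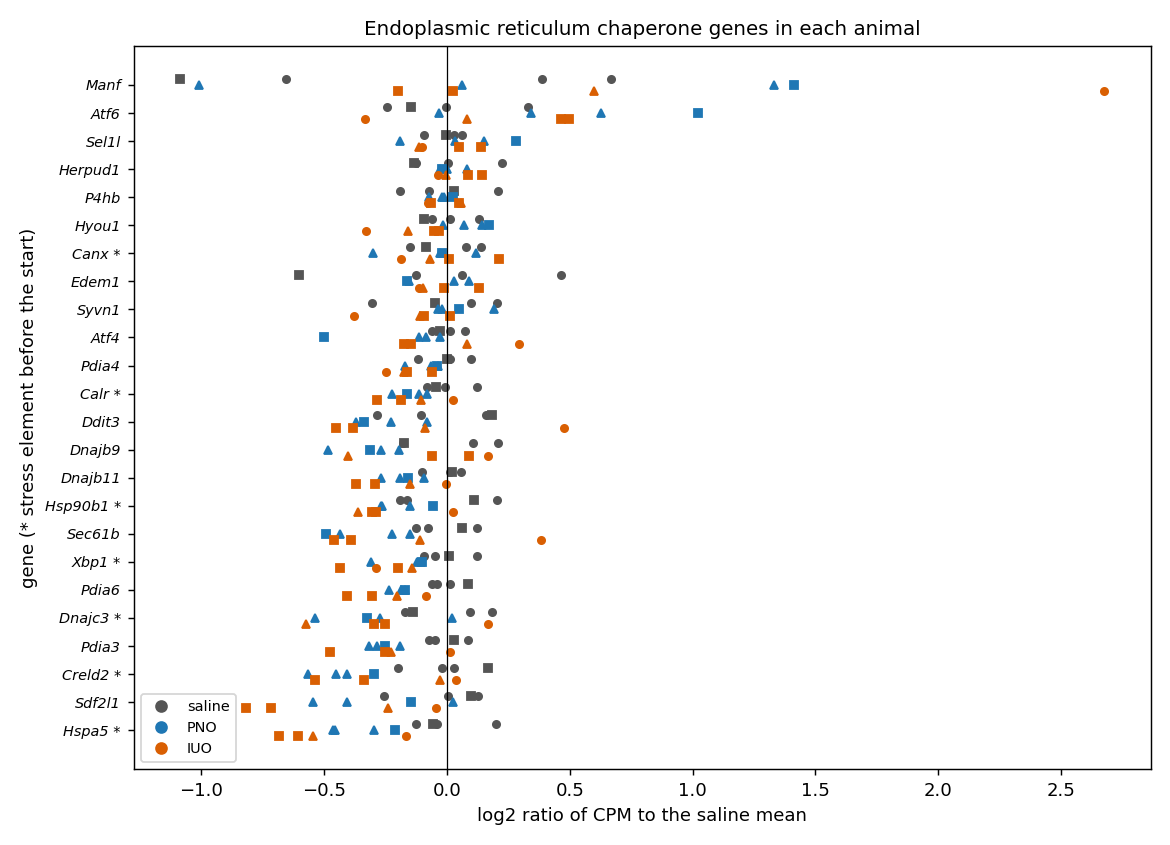
Log2 ratio of CPM to the saline mean (horizontal axis) of each endoplasmic reticulum gene (vertical axis, ordered by log2 fold change) in the 12 animals. Colours give the group, triangles raised bulb markers, squares raised striatal markers, and asterisks the genes with the element before their start. In Hspa5, Xbp1 and Pdia6 the exposed animals lie below all saline animals, and IUO 4 is often the exposed animal nearest to saline or above it.

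Activity-regulated genes also measured lower on balance. Immediate early genes are switched on in neurons within minutes of firing, without new protein synthesis. Of 22 tested members of the list, later activity-regulated effectors included, 17 had a negative log2 fold change, against 6499 of all 14170 genes. Their median was -0.22, with -0.12 in PNO and -0.36 in IUO. At an unadjusted p under 0.05, 4 were lower (Bdnf, Nptx2, Dusp6 and Gadd45b) and 0 higher. The mean level of the list overlapped between the groups, at 5.01 to 5.28 log2 CPM in saline and 4.18 to 5.30 in exposed animals. IUO 1 and IUO 2, both with raised striatal markers, were the lowest at 4.40 and 4.18. The list's median was -0.12 without the animals with raised striatal markers, -0.42 without those with raised bulb markers and -0.30 with both marker means as covariates.

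Bdnf, the neurotrophin that strengthens synapses, measured 29.9, 28.7, 29.9 and 36.1 CPM in saline, 19.1, 19.1, 22.3 and 20.04 CPM in PNO and 19.8, 15.4, 19.8 and 30.6 CPM in IUO. The exposed animals except IUO 4 lay below the saline range. The log2 fold change was -0.59 (SE 0.14, edgeR adjusted p = 0.574, DESeq2 adjusted p = 0.0523), -0.63 in PNO and -0.54 in IUO. Without IUO 4 edgeR called it (log2 fold change -0.69, adjusted p = 0.0494), and with the marker means as covariates the log2 fold change was -0.28. Nptx2, a secreted pentraxin that clusters AMPA receptors on interneurons, measured 118, 154, 178 and 207 CPM in saline, 107, 119, 153 and 120.0 CPM in PNO and 117, 102, 108 and 101 CPM in IUO. Saline 1 lay among the exposed animals (log2 fold change -0.50, SE 0.13, edgeR adjusted p = 0.574), and the value was -0.59 with the covariates. Dusp6, a phosphatase that turns off ERK, measured 37.7, 34.2, 35.3 and 35.9 CPM in saline, 32.7, 23.1, 32.4 and 36.1 CPM in PNO and 21.3, 18.2, 27.6 and 29.99 CPM in IUO. All 4 IUO animals and 3 of 4 PNO animals were below the saline range, while the mean of PNO was 31.1 ± 5.56 CPM and that of IUO 24.3 ± 5.47 CPM (SD, n = 4).

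Beyond Gad1, the list of GABAergic neuron genes had 15 of 19 members positive, against 54.1% of all genes. It had 8 higher and 0 lower at an unadjusted p under 0.05, against 4.38% and 2.58% of all genes. The interneuron genes Cck (log2 fold change -0.28), Sst (-0.15), Calb1 (-0.09) and Vip (-0.08) were the 4 negative members, and Npy was at 0.02. Each of these had an unadjusted p above 0.05 in edgeR. The list's median was 0.46. It was 0.55 in PNO and 0.32 in IUO. Bulb and striatum are themselves rich in GABA neurons. With the covariates, which lean in part on IUO 4, the list's median was 0.02. It was 0.07 without the 4 animals with raised bulb markers. The mean of the list was 4.61 to 4.97 log2 CPM in saline and 4.66 to 5.50 in exposed animals, with IUO 4 lowest of the exposed. Dlx6, a homeobox gene of GABA neurons, measured 2.27, 4.83, 3.47 and 3.49 CPM in saline, 5.88, 9.61, 6.29 and 6.14 CPM in PNO and 3.74, 7.41, 7.42 and 5.71 CPM in IUO. IUO 1 was the exposed animal inside the saline range (log2 fold change 0.89, SE 0.24, edgeR adjusted p = 0.574), and with the covariates the value was 0.50. Its neighbour Dlx5 had a log2 fold change of 0.97 (SE 0.32) that became -0.13 with the covariates. Tshz1, a bulb interneuron gene that is itself part of the bulb list, measured 9.88 to 12.6 CPM in saline, 32.7 to 42.02 CPM in the 4 animals with raised bulb markers and 8.93 to 21.9 CPM in the other exposed animals. The part of bulb and striatal tissue in the GABA gene values was not tested beyond these alternatives.

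Synaptic and channel genes leaned higher. Of 27 glutamate receptor and transporter genes, 22 were positive, against 54.1% of all genes, with a median of 0.13. Of them 6 were higher and 0 lower at an unadjusted p under 0.05. The mean of the list was 5.12 to 5.36 log2 CPM in saline and 5.02 to 5.56 in exposed animals, with IUO 4 below every saline animal. With the covariates the median was 0.07, with 15 positive, and without the animals with raised striatal markers it was 0.08. Log2 fold change followed transcript length across genes, as given below for the chromatin genes. With that length trend removed from each animal, 18 of the 27 were positive, with a median of 0.09. Grm4, a presynaptic metabotropic receptor, measured 31.8, 28.9, 40.2 and 37.6 CPM in saline, 49.2, 49.8, 54.8 and 49.5 CPM in PNO and 49.7, 57.4, 56.1 and 26.2 CPM in IUO, with IUO 4 below every saline animal. Its log2 fold change was 0.50 (adjusted p = 0.661), 0.60 without IUO 4 (adjusted p = 0.0494) and 0.07 with the covariates.

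Of 35 voltage-gated channel genes 32 were positive, against 54.1% of all genes, with a median of 0.19, 0.20 in PNO and 0.16 in IUO. The list had 6 members higher and 0 lower at an unadjusted p under 0.05, and its median was 0.05 with the covariates and 0.07 without the animals with raised striatal markers. Cacna1c, the pore of an L-type calcium channel that couples activity to transcription, measured 15.1 ± 2.33 CPM in saline, 23.1 ± 1.53 CPM in PNO and 18.2 ± 2.66 CPM in IUO (SD, n = 4), a pooled log2 fold change of 0.45 (SE 0.14, edgeR adjusted p = 0.614). Kcna2, a potassium channel of axons, measured 91.7 ± 6.86, 106 ± 9.45 and 123 ± 23.1 CPM in the same order. The presynaptic list had 19 of 26 members positive and a median of 0.11, 0.26 in PNO and 0.07 in IUO. Unc13a, which primes synaptic vesicles for release, had log2 fold changes of 0.63 in PNO and 0.17 in IUO (PNO against IUO unadjusted p = 0.00668, adjusted p = 0.714). The presynaptic median was -0.01 without the animals with raised striatal markers. The postsynaptic density list had a median of 0.07, with 0.13 in PNO and 0.01 in IUO, where 12 of 24 were positive. It was -0.02 without the animals with raised striatal markers and 0.11 without IUO 4. Genes of the channel, presynaptic and postsynaptic lists had median transcripts of 7213, 4076 and 6269 bases, against 3133 for all genes with a length. With the length trend removed from each animal the medians were 0.13, 0.09 and 0.02, in that order. Positive members then numbered 28 of 35, 17 of 26 and 13 of 24.

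Among cortical layer markers 2 were higher and 1 lower at an unadjusted p under 0.05, and the list's median of 0.10 became -0.01 without the animals with raised striatal markers. Cux1 and Cux2 are transcription factors of upper-layer pyramidal neurons, and Fezf2 specifies deep-layer projection neurons. Cux1 measured 56.00, 53.1, 53.3 and 63.5 CPM in saline, 65.4, 74.3, 70.7 and 75.6 CPM in PNO and 67.6, 79.5, 65.5 and 59.1 CPM in IUO. IUO 4 lay within the saline range (log2 fold change 0.30, SE 0.08, edgeR adjusted p = 0.607). Cux2 had a log2 fold change of 0.36 (SE 0.13, edgeR adjusted p = 0.691), with 0.50 in PNO and 0.21 in IUO. Fezf2 measured 47.3 ± 8.74 CPM in saline and 39.7 ± 4.45 CPM in exposed animals, a log2 fold change of -0.25 (SE 0.12, edgeR adjusted p = 0.712). Other deep-layer genes of the list were mostly positive, among them Foxp2 (0.35), Bcl11b (0.34), Etv1 (0.19) and Tle4 (0.10), while Tbr1 was at -0.12. Rorb was at 0.0014. These had an unadjusted p above 0.05 in edgeR, and whether any layer as a whole differed was not tested.

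All 40 tested genes of chromatin remodelling and DNA methylation had a positive log2 fold change, a count that was 33 with the gene length trend removed and 21 with the marker means as covariates, and the share over all genes was 54.1%. Their median was 0.19, 0.28 in PNO and 0.10 in IUO. The mean of the list was 5.18 to 5.33 log2 CPM in saline and 5.05 to 5.69 in exposed animals. IUO 4 was below every saline animal, and the other exposed animals were above every saline animal. At an unadjusted p under 0.05, 8 were higher and 0 lower, and in Chd8 and Chd4 all 8 exposed animals were above all 4 saline animals. These genes are long, with a median of 9722 bases of transcript against 3133 for all genes with a length, and log2 fold change followed length across genes (Spearman's rank correlation 0.26 over 14049 genes, which are not independent replicates, 0.34 in PNO and 0.09 in IUO). With the length trend removed from each animal the median was 0.10, and with the marker means as covariates it was 0.01. Chd8, a chromodomain helicase in which loss of 1 copy is linked to autism, measured 54.1, 55.6, 54.5 and 59.1 CPM in saline, 75.3, 72.6, 67.7 and 71.4 CPM in PNO and 69.1, 61.7, 63.97 and 59.9 CPM in IUO. The PNO animals lay above the IUO animals except IUO 1, and IUO 4 was nearest to saline (log2 fold change 0.28, SE 0.07, edgeR adjusted p = 0.574, 0.19 with the length trend removed). Chd4, the helicase of the NuRD repressor complex and named after its values were seen, measured 174 to 183 CPM in saline and 189 to 216 CPM in exposed animals. The histone acetyltransferase gene Ep300 measured 22.95 ± 2.64 CPM in saline and 28.5 ± 3.06 CPM in exposed animals (log2 fold change 0.31, SE 0.10, 0.21 with the length trend removed).

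**Figure D4:**
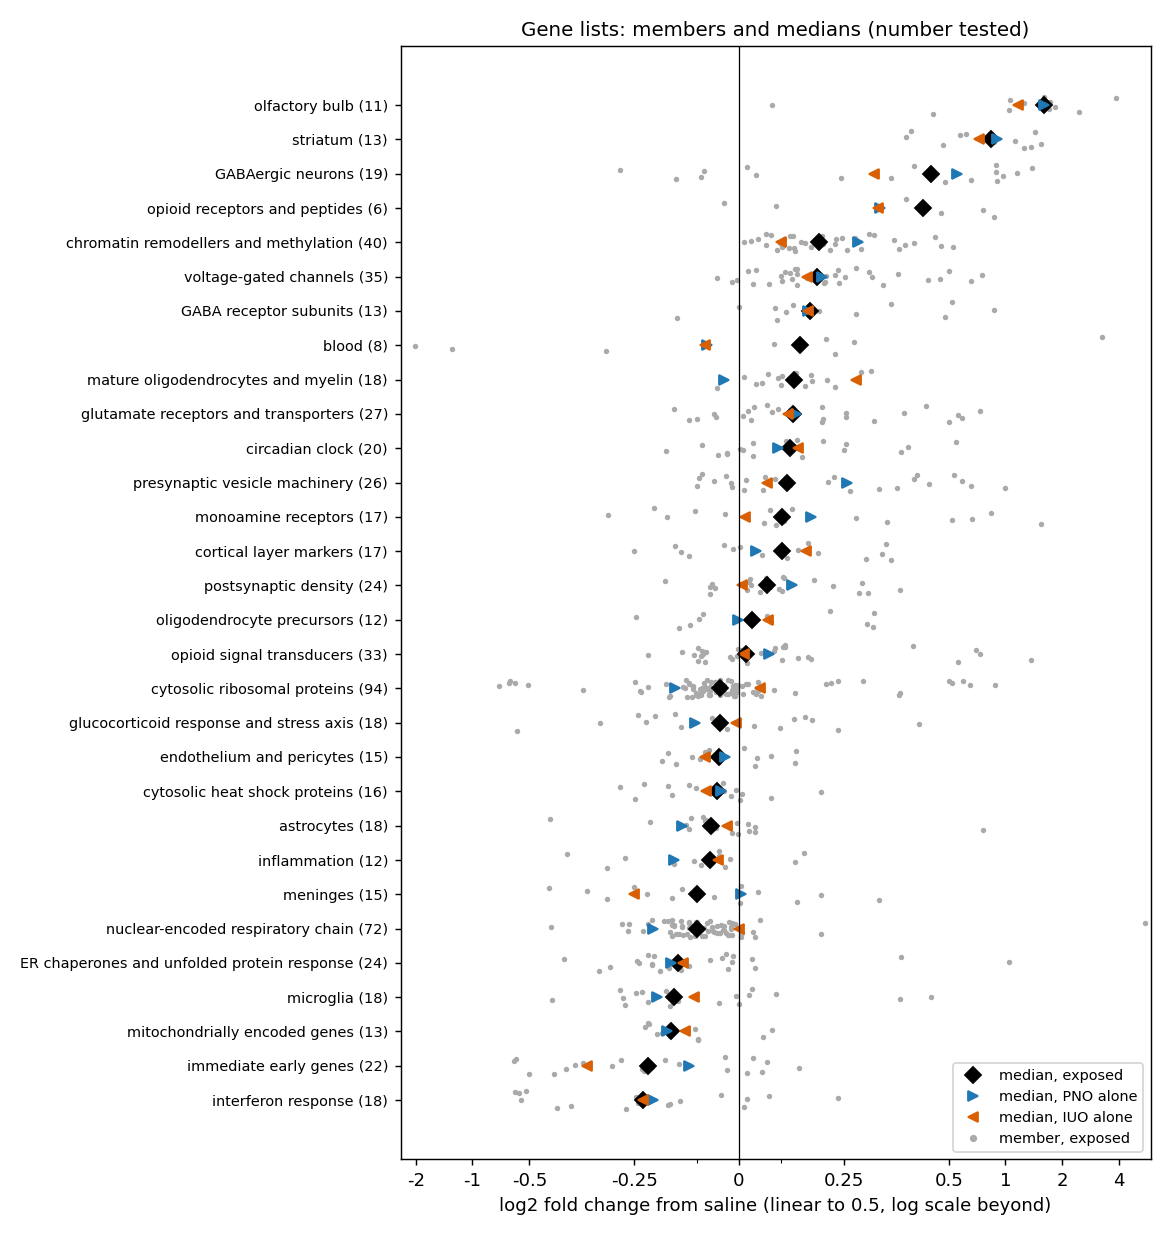
Log2 fold change from saline (horizontal axis, linear to 0.5 and logarithmic beyond) of the tested members of each gene list (grey points), with the list's median for exposed, PNO alone and IUO alone. Endoplasmic reticulum, immediate early, interferon and mitochondrially encoded genes have medians below 0 in both windows, and the chromatin list lies wholly above 0 without covariates. Bulb and striatal markers stand at the top.

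The circadian clock list had 15 of 20 members positive, against 54.1% of all genes, and 4 higher and 0 lower at an unadjusted p under 0.05. Its median was 0.12, 0.09 in PNO and 0.14 in IUO. The mean of the list was 5.25 to 5.32 log2 CPM in saline and 5.22 to 5.47 in exposed animals. IUO 4 was below every saline animal, and the other exposed animals were above every saline animal. Time of collection was not given. The clock activator CLOCK with BMAL1 acts through the E-box CACGTG, which 1872 of 33469 rat promoters held in the 250 bases before the start (5.59%) and 5 of 18 matched clock genes did (27.8%). That share is a property of the list and not of the exposure. The stretch with the E-boxes of Ciart (chr2:186112247-186112359, minus strand, holding 3) and that of Nr1d1 (chr10:84229620-84229665, minus strand) are shown 5′ to 3′ along the gene, with E-boxes in capitals, as the 2 listed genes with an E-box that were at an unadjusted p under 0.05.
Ciart: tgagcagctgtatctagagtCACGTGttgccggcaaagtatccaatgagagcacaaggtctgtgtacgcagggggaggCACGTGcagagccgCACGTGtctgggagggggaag
Nr1d1: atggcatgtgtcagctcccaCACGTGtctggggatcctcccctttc

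Ciart, a repressor of the clock, measured 7.01, 7.31, 8.17 and 9.42 CPM in saline, 12.6, 10.96, 13.3 and 14.5 CPM in PNO and 10.9, 10.8, 12.9 and 7.22 CPM in IUO. IUO 4 lay in the saline range and the other 7 above it (log2 fold change 0.54, SE 0.16, edgeR adjusted p = 0.614, 0.15 with the covariates). Nr1d1 (Rev-erb alpha), which represses Bmal1, measured 97.3, 133, 145 and 169 CPM in saline, 159, 177, 208 and 146 CPM in PNO and 169, 196, 167 and 201 CPM in IUO. Saline 1 stood low and saline 4 among the exposed animals (log2 fold change 0.39, SE 0.13, edgeR adjusted p = 0.661). Npas2, a partner of BMAL1, had a log2 fold change of 0.25 (SE 0.08, edgeR adjusted p = 0.614). Npas2 and Dbp (0.25), the other members at an unadjusted p under 0.05, were not among the genes found with an E-box. Tef (0.13), Bhlhe41 (0.20) and Bhlhe40 (-0.05) were among them and had an unadjusted p above 0.05 in edgeR. Whether the E-box bears on these values was not tested. The list's median was 0.01 with the covariates, 0.05 without the animals with raised striatal markers and 0.07 with the length trend removed.

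Microglial, astrocyte and interferon response genes had negative medians, and those of microglia and astrocytes were positive with the covariates. Of 18 microglial genes 12 were negative, against 6499 of all 14170 genes, with a median of -0.16. Of them 3 were lower and 1 higher at an unadjusted p under 0.05, and with the covariates the median was 0.01. C1qa, which starts the complement cascade and is made by microglia, measured 65.1, 57.4, 47.4 and 57.7 CPM in saline, 41.7, 35.5, 41.6 and 31.2 CPM in PNO and 39.9, 30.4, 44.7 and 69.1 CPM in IUO. IUO 4 was above every saline animal and the other 7 exposed animals were below every saline animal (log2 fold change -0.45, SE 0.18, -0.59 without IUO 4, -0.10 with the covariates). Tmem119, a marker of resident microglia, had a log2 fold change of -0.27 (SE 0.11), with -0.42 in PNO and -0.14 in IUO. The member with a higher value was Sall1, the transcription factor that keeps microglial identity and is also expressed elsewhere in the brain. It was 30.4 to 40.2 CPM in the 4 animals with raised bulb markers and 19.95 to 21.96 CPM in the other exposed animals, against 18.05 to 22.2 CPM in saline.

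Interferon response genes were negative in 14 of 18, against 6499 of all 14170 genes. They had a median of -0.23, -0.21 in PNO and -0.23 in IUO, and 2 were lower and 0 higher at an unadjusted p under 0.05. The median was -0.11 without the animals with raised striatal markers. The mean of the list overlapped between the groups, at 2.57 to 3.31 log2 CPM in saline, with saline 3 lowest and saline 2 and saline 4 highest, and 2.45 to 2.99 in exposed animals. Bst2 (tetherin), which holds enveloped viruses at the cell surface, measured 5.40, 9.30, 5.33 and 12.8 CPM in saline, 4.25, 4.70, 6.42 and 5.71 CPM in PNO and 6.26, 3.40, 4.88 and 7.79 CPM in IUO. Saline 2 and saline 4 stood high and the other saline animals lay among the exposed (log2 fold change -0.60, SE 0.25). Astrocyte genes had a median of -0.07, which was 0.07 with the covariates, and 1 of 18 was lower at an unadjusted p under 0.05. That gene, Aldh1l1, an enzyme of folate metabolism and a pan-astrocyte marker, measured 37.7, 37.7, 34.3 and 41.9 CPM in saline, 18.97, 31.6, 32.9 and 27.6 CPM in PNO and 29.7, 25.3, 30.2 and 25.6 CPM in IUO. All exposed animals were below all saline animals (log2 fold change -0.45, SE 0.12, edgeR adjusted p = 0.574), with -0.45 in each window and -0.53 with the covariates. S100a9, a calcium-binding protein of neutrophils, measured 0.618 to 2.31 CPM in saline and 0.265 to 0.933 CPM in exposed animals (log2 fold change -1.29, SE 0.36, edgeR adjusted p = 0.607).

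Energy metabolism genes had small negative medians, which moved with the window and with IUO 4 and, for the nuclear-encoded list, turned positive with the covariates. Of 72 nuclear-encoded respiratory chain genes 65 were negative, against 6499 of all 14170 genes. Their median of -0.10 was -0.20 in PNO and -0.00062 in IUO, -0.18 without IUO 4 and 0.11 with the covariates. Ndufa9, a subunit of complex I, measured 145 ± 5.05 CPM in saline and 128 ± 13.04 CPM in exposed animals, with IUO 4 highest at 156 CPM. The 13 mitochondrially encoded genes had a median of -0.16, with 11 negative, -0.17 in PNO and -0.13 in IUO, and it was -0.30 with the covariates. Mt-atp6, a subunit of ATP synthase, measured 23089, 21783, 23041 and 23465 CPM in saline, 18273, 21286, 19065 and 20609 CPM in PNO and 19104, 20120.5, 21149.6 and 16961 CPM in IUO. All exposed animals lay below all saline animals (log2 fold change -0.22, SE 0.08, edgeR adjusted p = 0.680). Mitochondrially encoded genes took 17.0% to 18.9% of counts in saline and 15.1% to 17.7% in exposed animals. The list of 94 cytosolic ribosomal protein genes had a median of -0.04, with -0.15 in PNO and 0.05 in IUO, and it was 0.16 with the covariates. Nuclear-encoded, mitochondrially encoded and ribosomal genes are short, with median transcripts of 1454, 847 and 1004 bases against 3133 for all genes with a length. With the length trend removed the medians were -0.07, -0.09 and -0.01. Positive members then numbered 17 of 72, 2 of 13 and 44 of 94, against 7, 2 and 23 before.

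Opioid genes gave no call. The mu receptor gene Oprm1, with 63 counts over the 12 animals, and the kappa receptor gene Oprk1, with 1409 counts and a mean of 0.403 FPKM, fell below the filter. Oprd1, the gene of the delta receptor, was at 1.03 ± 0.504 CPM in saline and 1.44 ± 0.422 CPM in exposed animals (edgeR adjusted p = 0.791). Penk, the enkephalin precursor, measured 76.03, 145, 65.2 and 73.01 CPM in saline, 95.4, 381, 94.6 and 95.1 CPM in PNO and 134, 296, 113 and 106 CPM in IUO. It was highest in PNO 2, IUO 2 and saline 2, which had raised striatal markers, and its log2 fold change of 0.87 (SE 0.42, edgeR adjusted p = 0.712) was 0.31 with the covariates. Pdyn, the dynorphin precursor, had a log2 fold change of 0.40 (SE 0.42) that became -0.32 without the animals with raised striatal markers. Penk and Pdyn are themselves members of the striatal list. Their own levels thus went into the marker mean, and these values are no independent check of it. Pnoc, the nociceptin precursor, measured 8.88 ± 1.21 CPM in saline, 7.88 ± 0.545 CPM in PNO and 11.01 ± 2.63 CPM in IUO (SD, n = 4). The receptor gene for nociceptin, Oprl1, had a log2 fold change of -0.04 (SE 0.10). Among 33 genes that carry or end the opioid signal, such as G protein subunits and arrestins, the median was 0.02. Arrb1, the gene of beta-arrestin 1, measured 10.5, 6.82, 9.47 and 7.25 CPM in saline, 14.03, 21.6, 12.5 and 15.8 CPM in PNO and 15.9, 14.5, 10.8 and 5.49 CPM in IUO. IUO 4 was below every saline animal and the other 7 above every saline animal (log2 fold change 0.70, SE 0.27, edgeR adjusted p = 0.692, 0.05 with the covariates).

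**Figure D5:**
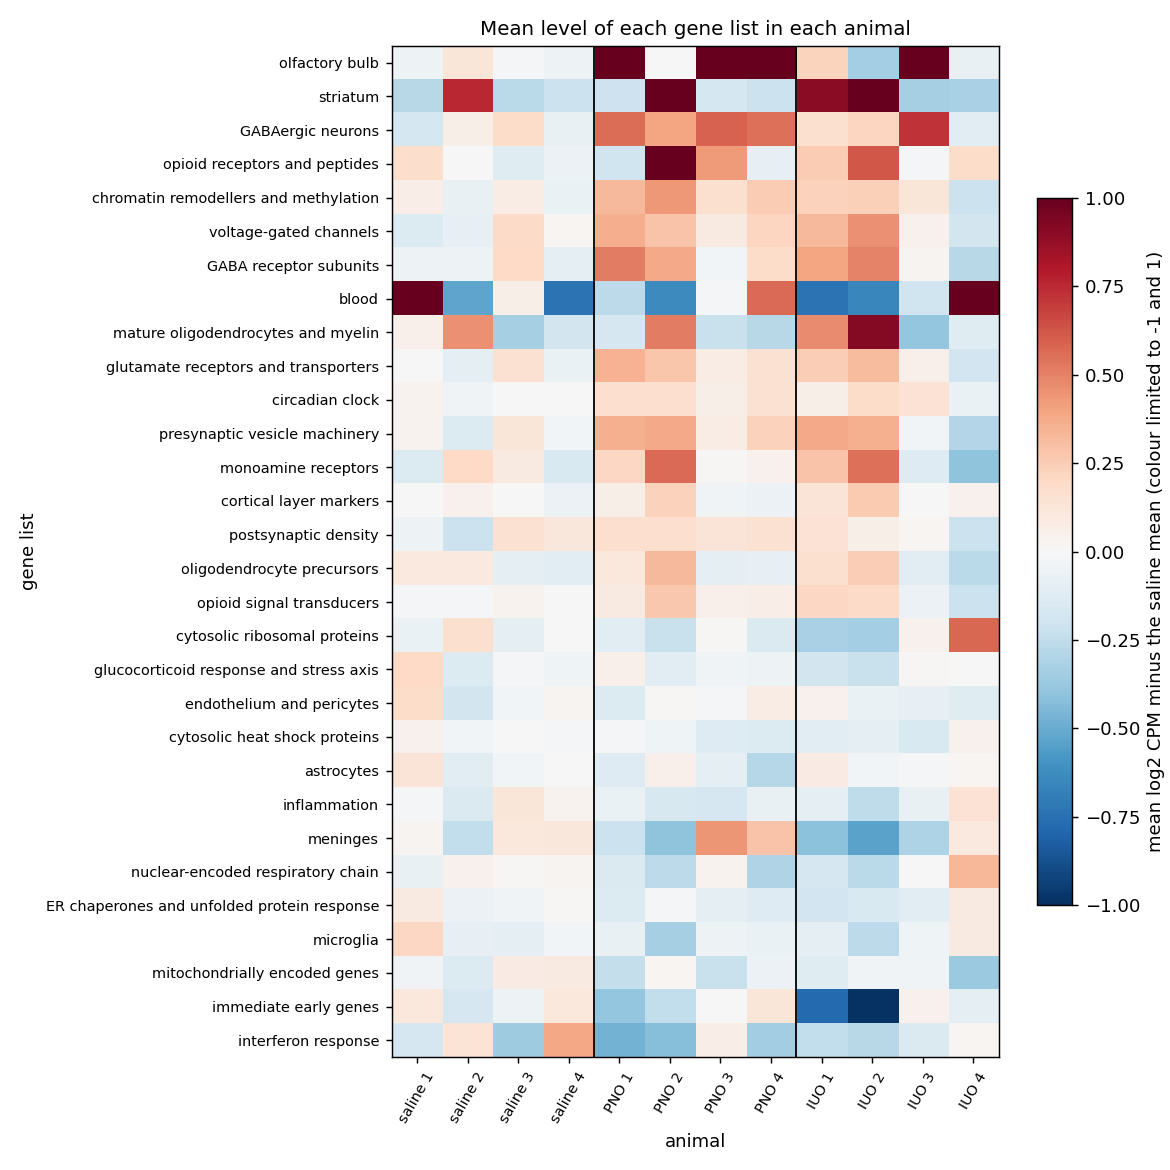
Mean log2 CPM of each gene list (rows, ordered by median log2 fold change) in each animal (columns), as the difference from the saline mean, with colours limited to -1 and 1. The bulb row is high in PNO 1, PNO 3, PNO 4 and IUO 3, the striatal row in PNO 2, IUO 1, IUO 2 and saline 2, and the immediate early row is lowest in IUO 1 and IUO 2.

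The pooled value stood for both windows only as far as PNO and IUO did not differ, and their difference does not rest on the saline mean. EdgeR called 0 of 14170 genes between PNO and IUO (0.0%), with 953 at an unadjusted p under 0.05, and DESeq2 called 8. Of the genes named above, apart from those named after their values were seen, the smallest unadjusted p between the windows was that of Unc13a (0.00668). It was ahead of Pnoc (0.0117), Cacna1c (0.0239), Tshz1 (0.0259), Tmem119 (0.0296), Chd8 (0.0305) and Dusp6 (0.0446). For Pcsk1, Gad1, Hspa5, Bdnf, Mas1, Cdkn1a and Aldh1l1 the unadjusted p between the windows lay between 0.273 and 0.974, which does not show that the windows act alike. Against the shared saline animals, PNO alone gave 1564 genes at an unadjusted p under 0.05 and IUO alone 570, and neither gave a call in edgeR.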

How the data were processed

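Stranded TruSeq libraries of poly(A) RNA, 1 per animal, were made from prefrontal cortex, per the labels' protocols. The submitters' processing notes name HISAT2 and StringTie. Tool versions, the build and the gene models were not given in the sources used here. In 1 table the authors deposited whole-number counts and FPKM of 22431 genes for each animal. Genes with a mean of at least 0.5 FPKM over the 12 animals were tested.

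The main test was the edgeR quasi-likelihood test on the counts with TMM scaling, with all 8 exposed animals as 1 level against 4 saline animals, two-sided, with Benjamini-Hochberg adjustment over 14170 genes and a threshold of 0.05. A model with the 3 groups gave PNO and IUO against saline and against each other. Levels are TMM-scaled CPM, and log2 CPM used a prior count of 2. Pooling of animals of different windows puts any difference between the windows into the spread. The 12 animals had 49227533 to 60672246 counts, so counting error mattered little except for genes with few counts. An animal had raised striatal or bulb markers where the mean log2 CPM of the list exceeded the median of the 12 by over 0.6. Alternatives were DESeq2, limma on log2 of FPKM plus 0.1, 0.5 or 1, limma with sample weights, robust dispersions, median-of-ratios scaling, no filter or a mean of at least 2 FPKM, the 3-group model, each window alone, a replicate block, covariates (striatal and bulb marker means, or Eif2s3y), removal of the gene length trend, and leaving out each animal or those with raised markers. The scripts were tested on simulated data with known changes. The software comprised Python 3.11.15 with matplotlib 3.10.9 and, in R 4.3.3, DESeq2 1.42.0, limma 3.58.1 and edgeR 4.0.16.

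The comparison, the 32 gene lists and the rule for named genes were chosen with earlier results of these data known. The rule took up to 30 genes by call or smallest p, the 3 members of each list with the smallest p, the 10 genes with the widest gap between non-overlapping groups in each direction, and the opioid genes. Lists are described by counts and medians, with no test of a list. Some genes, calls among them, are not reported here by name.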

Additional observations from a re-analysis of the deposited data

Results flagged for a closer look

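Each described gene was checked in each group of 4 animals for an animal far from the other 3, by Dixon's criterion, which flags about 1 in 20 groups by chance. Of 201 checks, 15 found such an animal. Pcsk1 was low in IUO 2 at 15.2 CPM, Schip1 in PNO 4 at 114 CPM and Xbp1 in PNO 1 at 91.4 CPM, all on the side away from saline. Mis18a was low in PNO 4 at 0.136 CPM and in IUO 4 at 0.405 CPM, near the saline animals. Bdnf was high in saline 4 at 36.1 CPM, and Hsp90b1 was high in IUO 4 at 386 CPM. Grm4 was high in PNO 3 at 54.8 CPM. In animals with raised striatal markers, Penk was high in saline 2 at 145 CPM, in PNO 2 at 381 CPM and in IUO 2 at 296 CPM, Pdyn in PNO 2 at 79.2 CPM and Dlx6 in PNO 2 at 9.61 CPM. In IUO 3, with raised bulb markers, Sall1 was at 34.5 CPM and Eomes at 11.2 CPM. Penk and Pdyn are part of the striatal list and Eomes of the bulb list.

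Pnoc lay below the saline mean in all 4 PNO animals (log2 fold change -0.17) and above it in all 4 IUO animals (0.31). In the test of PNO against IUO the unadjusted p was 0.0117 and the edgeR adjusted p 0.714.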

How the results depend on the processing

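Against 0 genes called in exposed against saline, DESeq2 called 19, limma on log2(FPKM + 0.1), log2(FPKM + 0.5) and log2(FPKM + 1) called 1 each, the test without the animals with raised striatal markers called 1, and leaving out 1 animal gave 0 to 7. Genes at an unadjusted p under 0.05, 987 with all animals, numbered 1564 for PNO alone, 570 for IUO alone, 2194 with sample weights, 1527 with no filter, 606 without raised striatal markers and 754 to 2345 with 1 animal left out. Genes with no overlap, 95 in all, numbered 111 to 439 with 1 animal left out, 372 without raised bulb markers and 494 without raised striatal markers, counts that can only grow as animals are removed; the last 2 sets and the counts at an unadjusted p were chosen after seeing the data. Between PNO and IUO, DESeq2 called 8 genes and leaving out 1 animal gave 0 to 1, namely Zwint without IUO 2 and Retsat without PNO 3, both named after their values were seen.

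With the replicate block, edgeR called 0 genes in exposed against saline, with 1110 at an unadjusted p under 0.05, and 0 between PNO and IUO. The deviations of same-numbered animals from their group means had positive correlations (r 0.015 to 0.41). The highest were those of PNO 2 with IUO 2 (0.41), both with raised striatal markers, and PNO 3 with IUO 3 (0.24), both with raised bulb markers. Of the 12 animals, 8 matched best with their own number in another group. The labels do not say what the numbers stand for, and the main test did not use them. Whether same-numbered animals share a batch or other factor was not tested.

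Of 67 described genes, 61 kept their sign under those of the 30 alternatives that could be run for them. Canx turned positive with sample weights (0.0054) and ran from -0.083 to 0.023 with 1 animal left out. With the covariates Dnajc3 became 0.062, Dlx5 -0.13 and Pdyn -0.19, and Pdyn was -0.32 without raised striatal markers. Oprl1 was 0.0054 in IUO alone, 0.052 without raised bulb markers and -0.10 to 0.0059 with 1 animal left out. Pnoc was -0.17 in PNO alone, -0.053 with sample weights and -0.036 to 0.16 with 1 animal left out. Of 32 list medians, 20 changed sign under at least 1 alternative. Depth did not limit these tests except for genes of a few counts such as Oprm1, and the dam could not be put into a model.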

Other observations

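Of 18 genes of myelin and mature oligodendrocytes, which wrap axons, 17 were positive with a median of 0.13, and 0 had an unadjusted p under 0.05. The median was -0.03 in PNO and 0.28 in IUO, -0.12 without the animals with raised striatal markers, 0.43 without those with raised bulb markers and -0.01 with both marker means as covariates. Their mean level was 6.82 to 7.61 log2 CPM in saline and 6.76 to 8.07 in exposed animals. Oligodendrocyte precursor genes had a median of 0.03, genes of endothelium and pericytes -0.05, and meningeal genes -0.10, with 0.0049 in PNO and -0.25 in IUO. GABA receptor subunits had a median of 0.17 (-0.04 with the marker means as covariates), monoamine receptors 0.10 (-0.14), inflammation genes -0.07 (0.07) and glucocorticoid response genes -0.05. All 4 tested choroid plexus genes, of 12 listed, were positive, with a median of 0.51, 0.17 in PNO and 0.58 in IUO, 0.13 without the animals with raised striatal markers and 0.72 without those with raised bulb markers, and 1 was higher at an unadjusted p under 0.05. The mean of that list was 0.26 to 2.24 log2 CPM in saline and -0.07 to 3.34 in exposed animals. The mean of the blood list ran from 2.29 to 4.24 log2 CPM in saline and from 2.29 to 4.34 in exposed animals.

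In some genes of small p the exposed animals differed widely among themselves. Mis18a, a factor that loads the centromeric histone, measured 0, 0.459, 0.312 and 0.0706 CPM in saline, 3.14, 2.76, 3.12 and 0.136 CPM in PNO and 4.61, 4.97, 4.23 and 0.405 CPM in IUO, with PNO 4 and IUO 4 within the saline range. RT1-CE16, a class I gene of the rat major histocompatibility complex, whose counts could be split with its near copies, measured 4.31, 2.55, 2.12 and 4.62 CPM in saline, 6.41, 14.5, 37.2 and 36.7 CPM in PNO and 5.45, 3.28, 36.1 and 26.05 CPM in IUO.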
